A study of Homo sapiens with 11 samples.

Results

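The genes described here are 10 regulators of mitochondrial biogenesis and of the transcription and replication of mitochondrial DNA (mtDNA). They were chosen by gene name, 1 row each, from the 60656 rows of a deposited expression table, and all 10 passed the filter on low values that left 15045 rows for testing. They comprise the coactivators PPARGC1B and PPRC1, the nuclear transcription factors NRF1, GABPA and ESRRA, the mtDNA transcription proteins TFAM, TFB1M, TFB2M and POLRMT, and the mtDNA helicase TWNK. The cells were Z138, an established human mantle cell lymphoma line, and all 9 RNA libraries came from its clone # 7. That clone carries doxycycline-inducible CAS9-RFP and 2 guides against DNMT3A, a DNA methyltransferase, so uninduced cells hold the same constructs as induced ones. The groups were uninduced cells (no treatment), cells labelled sgDNMT3A KO after 5 days of doxycycline at 2 ng/mL, and cells with the same label and dose after 7 days, with 3 libraries each. Replicates 1, 2 and 3 were, per the series design text, inductions of separately frozen vials on different days, and each library pooled the RNA of 2 technical duplicates. Cells given doxycycline but no guides are not among the libraries, which means that effects of the drug, of Cas9 and of the knockout cannot be told apart. With 1 clone, its own traits and those of the line cannot be told apart either.

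The mitochondrial genome encodes a small set of respiratory chain subunits with their ribosomal and transfer RNAs, and every protein that copies or transcribes it is made from nuclear genes. PGC-1 family coactivators dock on nuclear factors such as NRF1, the ETS-family factor GABP and the orphan receptor ERR alpha, which bind promoters of respiratory chain genes and of the mtDNA transcription proteins. In mitochondria, TFAM bends and packages mtDNA and recruits the RNA polymerase POLRMT, TFB2M melts the promoter so that transcription can start, and the helicase TWNK unwinds mtDNA for replication. The series title concerns oxidative phosphorylation downstream of DNMT3A in ibrutinib-resistant mantle cell lymphoma, which is the question these genes bear on.

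The promoters of 8 of the 10 genes were listed in a RefSeq table on GRCh38.p14. The 250 bases before the start site are shown for the 4 genes grouped here as the mtDNA transcription apparatus. They were chosen after the values were seen, as TFAM and TFB2M passed a test of replicate number that TFB1M and POLRMT did not pass, with no test of the difference between these genes. Sequences run 5′ to 3′ on the gene's own strand, ending at the base before the start, and capitals mark matches to the motifs named after them. TFAM lies on the plus strand (window chr10:58385160-58385409), and TFB2M (chr1:246566262-246566511), TFB1M (chr6:155314485-155314734) and POLRMT (chr19:633538-633787) lie on the minus strand.

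TFAM: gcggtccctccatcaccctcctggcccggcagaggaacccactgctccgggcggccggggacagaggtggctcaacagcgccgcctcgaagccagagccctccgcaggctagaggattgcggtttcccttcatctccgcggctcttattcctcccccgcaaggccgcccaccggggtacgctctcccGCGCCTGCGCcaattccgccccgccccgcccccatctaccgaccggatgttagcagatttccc

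TFB2M: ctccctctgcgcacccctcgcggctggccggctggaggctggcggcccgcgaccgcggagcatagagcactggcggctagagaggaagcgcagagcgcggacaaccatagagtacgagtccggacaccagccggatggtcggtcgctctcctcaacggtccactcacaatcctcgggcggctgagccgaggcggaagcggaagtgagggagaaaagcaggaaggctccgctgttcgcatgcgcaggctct

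TFB1M: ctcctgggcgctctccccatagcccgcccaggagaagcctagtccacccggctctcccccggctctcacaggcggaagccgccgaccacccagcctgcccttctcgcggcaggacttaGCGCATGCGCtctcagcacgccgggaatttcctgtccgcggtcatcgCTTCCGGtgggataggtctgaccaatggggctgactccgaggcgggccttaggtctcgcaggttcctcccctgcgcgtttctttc

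POLRMT: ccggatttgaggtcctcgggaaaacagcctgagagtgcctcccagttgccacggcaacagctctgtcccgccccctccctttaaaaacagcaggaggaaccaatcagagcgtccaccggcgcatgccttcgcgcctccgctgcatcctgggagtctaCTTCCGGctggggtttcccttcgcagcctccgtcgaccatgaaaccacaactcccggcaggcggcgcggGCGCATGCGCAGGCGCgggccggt

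The motifs searched, on both strands, included the core of NRF1 sites (GCGCA and GCGC with any 1 base between them). The others were an ETS core of the kind bound by GABP (CCGGAAG) and the single element bound by ERR alpha (AAGGTCA). The NRF1 core was present in 4 of the 8 promoters, against 5.07% of 35116 promoters in the table. It began 63 bases before the start of TFAM, 132 before TFB1M and 93 before ESRRA, and POLRMT held a pair of overlapping matches beginning 24 and 18 bases before its start, merged in the capitals above. The ETS core was present in 3 of 8, beginning 85 bases before TFB1M, 93 before POLRMT and 66 before GABPA, against 8.52% of all promoters. No ERR alpha element was present in the 8 windows, against 3.44% of all. The TFB2M window matched none of the 3 motifs as spelled, which says only that these letters are not in it. The windows held from 3 CpG dinucleotides (PPARGC1B) to 35 (ESRRA), and all but that of PPARGC1B lay above the median of 11 over all promoters. The NRF1 and ETS cores hold CpG themselves, and the shares over all promoters were not matched for CpG content. An excess particular to these genes was therefore not tested. For PPARGC1B and PPRC1 the listed start lies inside the annotated gene span. These matches describe sequence and do not show binding.

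With the deposited unit, TPM, a transcript abundance scaled by gene length that sums to 1000000 in each library, sequencing depth is unknown. Between 21590 and 22895 rows per library were above 0. Of 9 B cell and mantle cell lymphoma markers, 8 averaged at least 1 TPM, led by CCND1 (cyclin D1) at 1073, while CD5 was listed at 0 in every library. Their summed level was 1867 to 2088 TPM in uninduced cells, 1779 to 2022 at day 5 and 1768 to 2126 at day 7. No T and NK cell marker (0 of 5), myeloid marker (0 of 5) or erythroid marker (0 of 3) averaged 1 TPM, and 1 of 4 epithelial and fibroblast markers did, COL1A1 at 10.2. The targeted transcript, DNMT3A, stood at 10.1, 9.71 and 10.4 TPM in uninduced replicates 1, 2 and 3, while the day 5 libraries read 18.9, 10.93 and 10.04 and the day 7 libraries 10.96, 9.24 and 10.0. Its group means were 10.1 ± 0.354, 13.3 ± 4.86 and 10.1 ± 0.866 (SD, n = 3), so no fall was detected and the RNA level gives no check of the knockout labels. In these bulk libraries, fewer cells of a kind and less RNA per cell cannot be told apart.

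At the level of the whole line, the 10 regulators spanned PPRC1 at 66.2 ± 16.1 TPM (SD, n = 9 libraries of all groups) to PPARGC1B at 3.54 ± 0.601, the 85.7th and 24.6th percentile of tested genes. TWNK at 41.6 ± 12.5, POLRMT at 41.3 ± 4.37 and TFAM at 36.0 ± 8.37 TPM followed PPRC1, with ranges that overlapped one another. ESRRA averaged 30.7 ± 3.52, TFB2M 25.9 ± 7.83, NRF1 21.4 ± 3.16, TFB1M 18.1 ± 2.27 and GABPA 16.9 ± 2.00 TPM, and the ranges of neighbours in this order overlapped. Of the 9 neighbouring pairs, the range of PPARGC1B alone lay clear of its neighbour's. The founding member of the coactivator family, PPARGC1A, was listed at 0 in all 9 libraries, as were the ERR alpha relatives ESRRB and ESRRG.

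**Figure D1:**
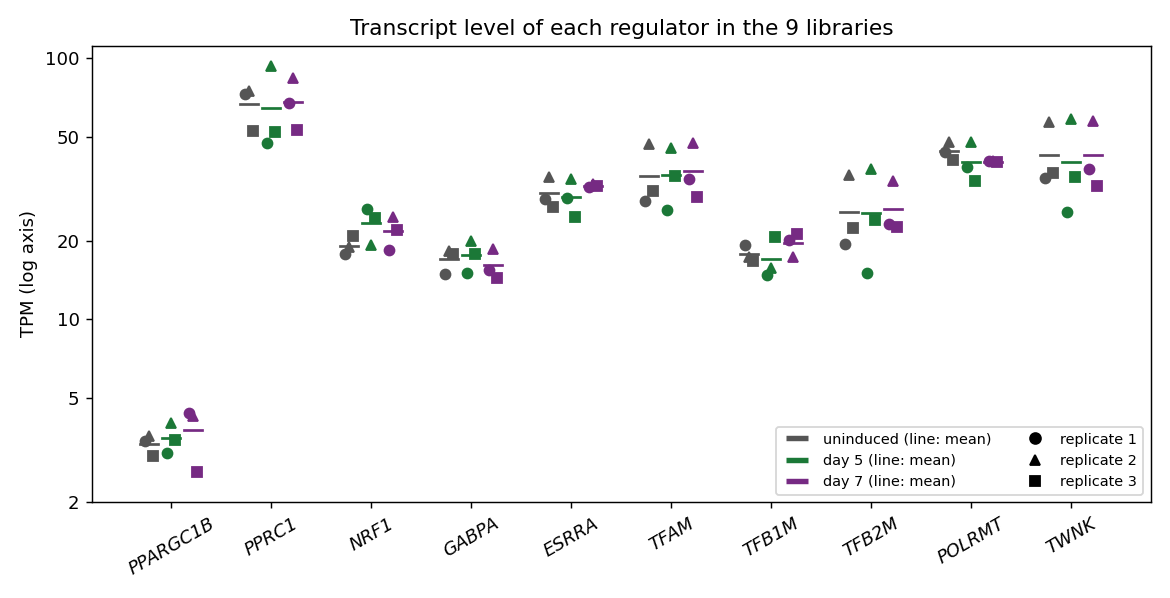
Level of each of the 10 regulators in TPM, 1 point per library on a log axis, coloured by group and shaped by replicate number, with bars for the group means. Each gene's induced groups overlap its uninduced group, except POLRMT at day 7. All triangles (replicate 2) lie above the other points for PPRC1, GABPA, ESRRA, TFAM, TFB2M and TWNK.

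None of the 10 regulators passed the threshold (adjusted p under 0.05) on induction. In limma on log2(TPM + 1), 0 of 10 passed at day 5 against uninduced, where 0.00665% of all tested genes did, and 0 of 10 at day 7, where 0.0% did. The same held for day 7 against day 5 and for both induced groups together, with 0.00665% of all genes called in each. At an unadjusted p under 0.05, 0 of 10 passed in any of these comparisons. Over all 15045 genes, 300 did at day 5 and 337 at day 7. At these background shares a list of 10 genes would hold few or none, so the counts of 0 are no result particular to the regulators. The median difference of the 10 was −0.05 (log2) at day 5 and 0.07 at day 7, beside −0.02 for all genes at both times. Each group holds 3 libraries, and the tests measure a difference against the spread of libraries within the 3 groups. That spread includes the differences between replicate numbers. With a block on number, run as an alternative, 771 genes had an unadjusted p under 0.05 in limma at day 5 and 899 at day 7.

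Among the coactivators, PPARGC1B (PGC-1 beta) stood at 3.43, 3.59 and 2.99 TPM in uninduced replicates 1, 2 and 3, 3.09, 4.03 and 3.46 at day 5, and 4.39, 4.28 and 2.62 at day 7. Its groups overlapped, and day 7 replicate 3 was the lowest library. PPRC1, the PGC-1-related coactivator induced by serum growth signals, read 72.9, 74.6 and 52.3 TPM uninduced, 47.4, 92.9 and 52.1 at day 5, and 67.0, 84.1 and 52.9 at day 7. Replicate 2 was its highest library in each group. Log2 differences were 0.06 (SE 0.19) at day 5 and 0.11 (SE 0.19) at day 7 for PPARGC1B, and −0.10 (SE 0.27) and 0.02 (SE 0.27) for PPRC1.

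Among the nuclear factors, NRF1 (nuclear respiratory factor 1) read 17.7, 18.9 and 20.8 TPM uninduced, 26.5, 19.3 and 24.4 at day 5, and 18.4, 24.7 and 21.9 at day 7. Compared number by number, the induced library was the higher one in 3 of 3 cases at day 5 and in 3 of 3 at day 7. The group ranges overlapped, and both times were set against the same uninduced libraries. GABPA was also higher in 3 of 3 cases at day 5, and in 2 of 3 at day 7. The share of all tested genes with such agreement was not computed, and the design text does not tie the numbers together. The NRF1 difference was 0.27 (log2, SE 0.16, 95% interval −0.09 to 0.62) at day 5 and 0.16 (SE 0.16, −0.19 to 0.52) at day 7. It was the highest of the 10 at both times and did not pass (adjusted p at least 0.999 in limma). GABPA, the DNA-binding subunit of GABP, stood at 14.9, 18.3 and 17.8 TPM uninduced, 15.01, 19.996 and 17.8 at day 5, and 15.4, 18.5 and 14.4 at day 7, with replicate 2 highest in every group. ESRRA, which encodes ERR alpha, read 28.8, 35.1 and 26.9 uninduced, 29.1, 34.3 and 24.7 at day 5, and 32.1, 33.0 and 32.3 at day 7. Its day 7 libraries lay within 1 TPM of one another, inside the uninduced range. Differences were 0.05 (SE 0.15) and −0.07 (SE 0.15) for GABPA and −0.05 (SE 0.15) and 0.11 (SE 0.15) for ESRRA at days 5 and 7.

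In the mtDNA transcription apparatus, TFAM, the mtDNA-packaging and transcription factor, read 28.3, 46.8 and 30.9 TPM uninduced, 26.1, 45.4 and 35.4 at day 5, and 34.3, 47.3 and 29.4 at day 7. TFB2M, which opens the mtDNA promoter, stood at 19.4, 35.8 and 22.3 uninduced, 15.1, 37.5 and 23.9 at day 5, and 23.1, 33.8 and 22.5 at day 7. In both genes the 3 libraries numbered 2 exceeded all others, and the groups overlapped. TFB1M, the TFB2M relative that methylates mitochondrial ribosomal RNA, read 19.2, 17.4 and 16.7 uninduced, 14.7, 15.7 and 20.6 at day 5, and 20.2, 17.3 and 21.2 at day 7, with no number on top throughout. POLRMT, the mitochondrial RNA polymerase, stood at 43.5, 47.7 and 40.8 uninduced, 38.3, 47.5 and 33.8 at day 5, and 40.2, 40.2 and 40.0 at day 7.

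Of the 10, POLRMT had the most negative difference at both times in this fit, at −0.15 (log2, SE 0.14, 95% interval −0.45 to 0.16) at day 5 and −0.13 (SE 0.14, −0.43 to 0.18) at day 7, and neither passed. It lay below the same-numbered uninduced library in 3 of 3 pairs at each time, an agreement whose share over all genes was not computed. Its 3 day 7 libraries lay below every uninduced one, which makes 1 of 10 regulators lower without overlap, beside 4.17% of all tested genes. No other regulator had groups apart: 0 of 10 were higher (2.34% of all genes) or lower (3.22%) at day 5, 0 higher at day 7 (1.97%), and 0 higher (1.85%) or lower (2.46%) at day 7 against day 5. TFAM differed by 0.01 (SE 0.26) and 0.07 (SE 0.26), TFB1M by −0.07 (SE 0.15) and 0.13 (SE 0.15), and TFB2M by −0.06 (SE 0.33) and 0.06 (SE 0.33). The TFB2M interval at day 5 ran from −0.80 to 0.68, so changes within it cannot be told from none in this fit. The fit leaves replicate number out and counts its spread as error. With a block on number, run as an alternative, the interval was −0.40 to 0.28 (SE 0.15).

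TWNK, the replicative mtDNA helicase also called Twinkle, read 34.7, 56.9 and 36.3 TPM uninduced, 25.8, 58.4 and 35.1 at day 5, and 37.4, 57.6 and 32.4 at day 7. Replicate 2 was above 56 TPM in all 3 groups and every other library was below 38. The induction differences were −0.14 (SE 0.32) at day 5 and −0.01 (SE 0.32) at day 7.

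**Figure D2:**
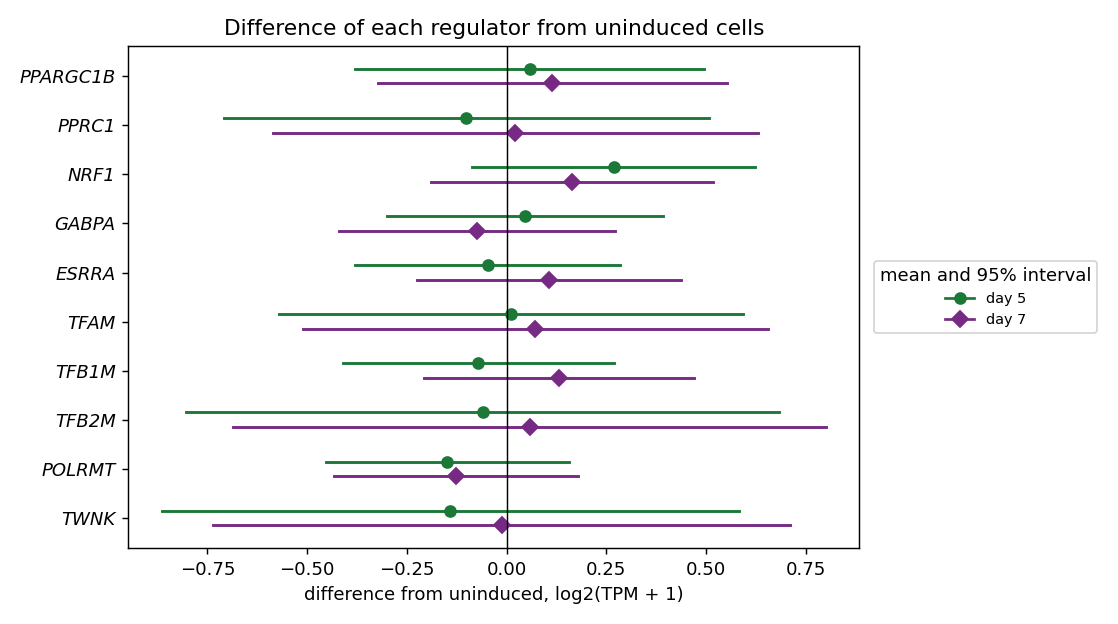
Difference from uninduced cells on the log2(TPM + 1) scale for each regulator at day 5 (circles) and day 7 (diamonds), with 95% intervals from limma. Every interval crosses 0, and those of TFB2M, TWNK, PPRC1 and TFAM are the widest.

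TWNK, TFB2M and TFAM differed between replicate numbers. In limma's F test of number, in a model that also held the group, 3 of 10 regulators passed, beside 12.6% of all tested genes (1903 of 15045): TWNK (adjusted p = 0.0180), TFB2M (0.0238) and TFAM (0.0306). TWNK averaged 32.6 ± 6.08, 57.7 ± 0.749 and 34.6 ± 1.99 TPM in libraries numbered 1, 2 and 3 (SD, n = 3 each, 1 per group). TFB2M averaged 19.2 ± 3.99, 35.7 ± 1.90 and 22.9 ± 0.871, and TFAM 29.6 ± 4.26, 46.5 ± 0.995 and 31.9 ± 3.11. The libraries numbered 2 had the higher TPM of each of these genes in uninduced, day 5 and day 7 cells alike. Number 2 exceeded number 1 by 0.88 (log2, SE 0.15, 95% interval 0.54 to 1.22) for TFB2M, by 0.82 (SE 0.13, 0.52 to 1.12) for TWNK and by 0.64 (SE 0.12, 0.36 to 0.93) for TFAM. Between numbers 3 and 1 the differences were 0.26 (SE 0.15) for TFB2M, 0.10 (SE 0.13) for TWNK and 0.11 (SE 0.12) for TFAM. Number 3 against number 2 gave −0.72 (SE 0.13, −1.02 to −0.42) for TWNK, −0.62 (SE 0.15, −0.96 to −0.28) for TFB2M and −0.53 (SE 0.12, −0.82 to −0.25) for TFAM. These pairwise sizes were chosen after the values were seen, and no calls are counted from them.

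The calls were lost without any 1 of the 3 libraries numbered 2, and without the filter on low values (adjusted p = 0.0690 for TWNK, 0.0858 for TFB2M and 0.0951 for TFAM). TFAM also missed the threshold without the intensity trend (0.0570). Without day 5 replicate 2, adjusted p rose to 0.102 for TWNK, 0.118 for TFB2M and 0.132 for TFAM. Without uninduced replicate 2 the values were 0.0593, 0.0824 and 0.108, and without day 7 replicate 2 they were 0.0702, 0.0616 and 0.105. TFB2M also missed the threshold without uninduced replicate 1 (0.0542), uninduced replicate 3 (0.0582) or day 7 replicate 3 (0.0509), and TFAM without uninduced replicate 1 (0.0668) or uninduced replicate 3 (0.0739). The size of the excess of number 2 over number 1 stayed at 0.53 to 0.77 for TFAM, 0.69 to 1.04 for TFB2M and 0.65 to 0.95 for TWNK over the 16 settings run.

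PPRC1 averaged 62.4 ± 13.3, 83.9 ± 9.13 and 52.4 ± 0.442 TPM in libraries numbered 1, 2 and 3 and did not pass (adjusted p = 0.0657), though it did without day 5 replicate 1 (0.0221). Its number 3 against number 2 gave −0.66 (SE 0.16, 95% interval −1.04 to −0.29). GABPA averaged 15.1 ± 0.273, 18.9 ± 0.917 and 16.7 ± 1.96, and ESRRA 29.98 ± 1.85, 34.1 ± 1.09 and 28.0 ± 3.94. All 3 libraries numbered 2 exceeded all 6 others in 6 of 10 regulators (PPRC1, GABPA, ESRRA, TFAM, TFB2M and TWNK), beside 14.9% of all tested genes, and lay below them in 0 of 10 (9.72%). Libraries numbered 1 stood above all others in 0 of 10 (6.81%) and below in 0 of 10 (3.79%), and those numbered 3 above in 0 of 10 (1.4%) and below in 0 of 10 (3.28%). POLRMT averaged 40.7 ± 2.59, 45.1 ± 4.28 and 38.2 ± 3.81 TPM and PPARGC1B 3.64 ± 0.675, 3.97 ± 0.348 and 3.02 ± 0.421, with overlap. NRF1 averaged 20.9 ± 4.88, 20.9 ± 3.25 and 22.4 ± 1.87, and TFB1M 18.03 ± 2.88, 16.8 ± 0.972 and 19.5 ± 2.43. Number 2 against number 1 gave −0.09 (SE 0.13, 95% interval −0.40 to 0.22) for TFB1M, an interval that ends below the 0.54 at which that of its relative TFB2M begins, although the difference between the genes was not tested. Of the lymphoma markers, 6 of the 8 tested also passed the F test of number, among them PAX5 at 17.7 ± 2.05, 34.96 ± 0.496 and 20.3 ± 1.13 TPM and FCER2 at 34.3 ± 0.150, 14.9 ± 2.68 and 24.7 ± 1.66, and their part in the differences of the regulators was not tested.

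**Figure D3:**
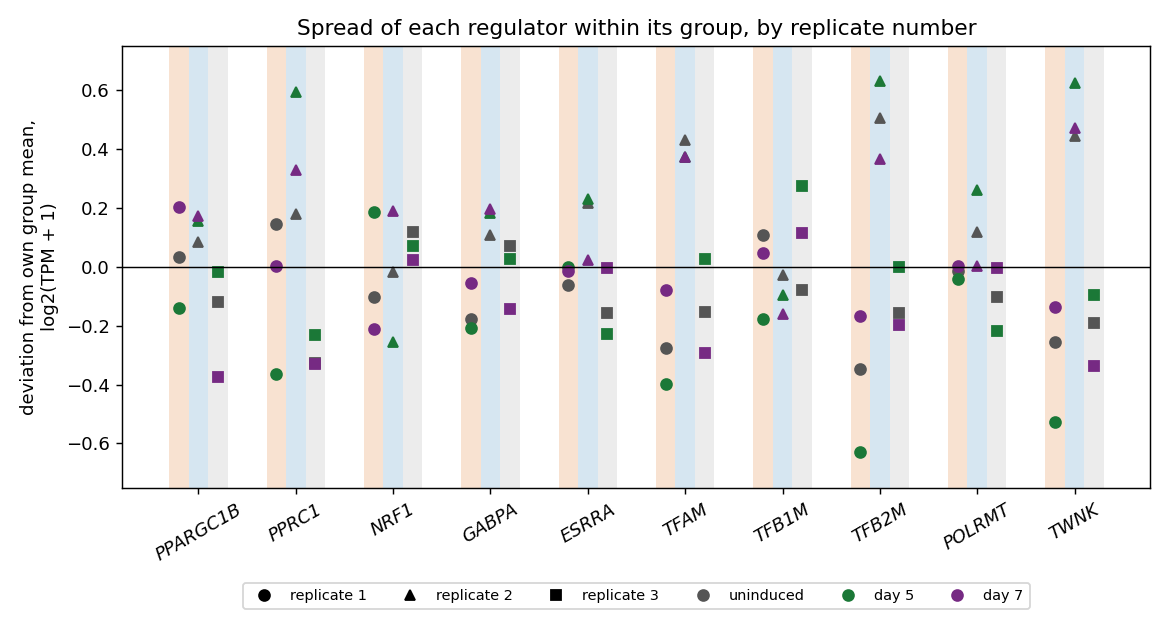
Deviation of each library from the mean of its own group on the log2(TPM + 1) scale, by regulator and replicate number. The triangles (replicate 2) lie above 0.3 in all 3 groups for TFAM, TFB2M and TWNK, while those of NRF1 lie on both sides of 0.

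As a description, replicate number held 87.9% of the variance over the 9 libraries for TWNK, 86.8% for TFB2M and 86.1% for TFAM, and the group held 2.69%, 1.46% and 1.10%. The median over all tested genes was 46.0% for number and 12.97% for group. Shares of number were 72.6% for PPRC1, 69.1% for GABPA, 57.6% for ESRRA, 49.4% for PPARGC1B and 46.9% for POLRMT. NRF1 stood at the other end, with 7.08% for number, 34.2% for group and 58.7%, its largest part, for the rest. TFB1M had 24.7%, 26.4% and 48.9%. The coefficient of variation over the 9 libraries ran from 10.6% for POLRMT to 30.2% for TFB2M.

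**Figure D4:**
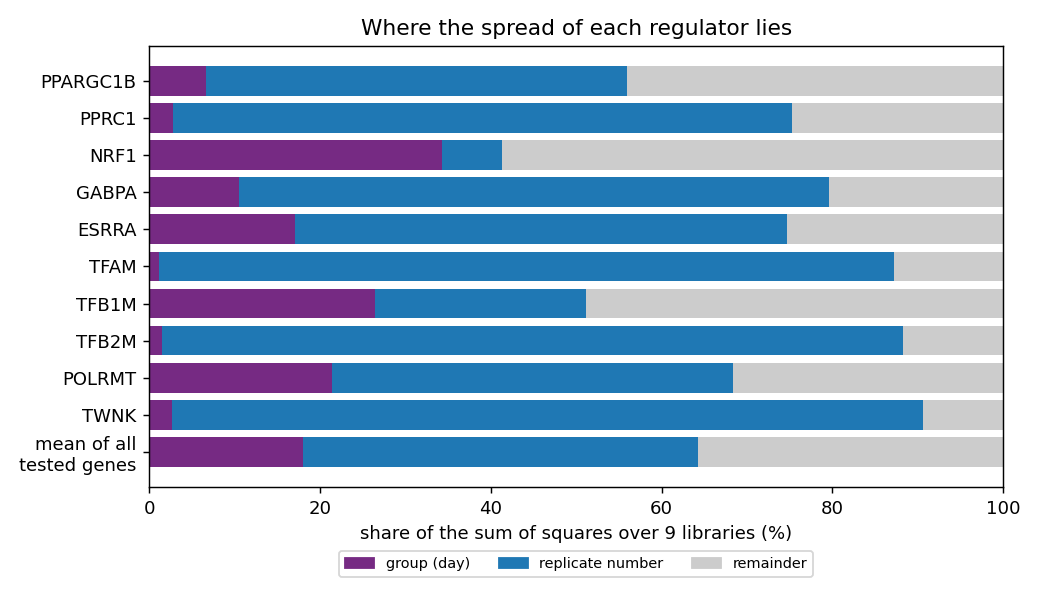
Share of the variance of log2(TPM + 1) over 9 libraries held by group, by replicate number and by the rest, for each regulator. The last bar is the mean of all tested genes, whereas the text gives the median. Number holds 86.1% to 87.9% for TFAM, TFB2M and TWNK, and 7.08% for NRF1.

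None of the partners and relatives of the 10 passed on induction in limma, also at an unadjusted p under 0.05. GABPB1, a transactivating subunit of GABP, had means of 25.9 ± 5.53 TPM in uninduced cells, 27.5 ± 5.29 at day 5 and 29.4 ± 4.34 at day 7, and GABPB2 of 4.15 ± 0.731, 4.02 ± 0.458 and 4.46 ± 0.425. NFE2L1 and NFE2L2, stress-response factors of another family whose aliases are easily confused with NRF1 and GABP, averaged 122.8 ± 20.02 and 43.1 ± 5.55 TPM uninduced. The mtDNA polymerase POLG averaged 40.8 ± 5.14, 38.8 ± 11.4 and 34.5 ± 2.82, and the elongation factor TEFM 11.2 ± 0.527, 11.7 ± 3.72 and 8.86 ± 2.11. SSBP1, the single-stranded mtDNA binding protein that works with TWNK, averaged 337 ± 51.5, 339 ± 96.9 and 347 ± 60.2, and LRPPRC, which stabilises mitochondrial messenger RNA, 92.9 ± 11.4, 91.1 ± 10.9 and 88.9 ± 8.45. MRPL12, a ribosomal protein reported to bind POLRMT, averaged 232 ± 35.5, 199 ± 57.3 and 205 ± 12.8.

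Over 6 lists of related genes, 0 members passed at day 5 or day 7 in limma. At an unadjusted p under 0.05 there were 2 genes at day 5 (MRM2 and COX7A2) and 2 at day 7 (TOP3A and SCO2). Lower values were also the majority over all tested genes, with 8235 of 15045 lower at day 5 and 8291 at day 7. Beside that, 18 of 21 RNA processing genes were lower at day 5 (median −0.04, log2) and 8 at day 7 (0.03), none past the threshold. Of 14 ribosomal RNA modification genes, again none past it, 12 were lower at day 5 and 11 at day 7, with medians of −0.09 and −0.06. MRM2, which methylates mitochondrial ribosomal RNA, read 6.89, 6.93 and 5.68 TPM uninduced and 2.07, 2.36 and 1.03 at day 5, a difference of −1.44 (SE 0.45, unadjusted p = 0.0107, adjusted p = 0.99998 in limma). At day 7 it read 13.2, 10.2 and 2.55, with replicate 3 below every uninduced library and the others above. Of 43 genes reported as targets of NRF1, GABP or ERR alpha, 29 were lower at day 5 and 26 at day 7 (medians −0.05 and −0.03), beside medians of −0.02 for all genes. COX7A2, a cytochrome oxidase subunit, averaged 310 ± 8.36 TPM uninduced 248 ± 46.3 at day 5 and 305 ± 6.12 at day 7, and SCO2, its copper chaperone, 9.47 ± 1.10 uninduced and 5.96 ± 2.64 at day 7. TOP3A, a topoisomerase that separates mtDNA circles, averaged 31.3 ± 9.11 uninduced and 22.1 ± 1.61 at day 7.

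By replicate number, 4 of 21 RNA processing genes (19.0%, beside 12.6% of all genes) passed limma's F test: FASTKD2, an RNA granule protein, SLIRP, the partner of LRPPRC, ELAC2, which trims transfer RNA precursors, and MTPAP, the mitochondrial poly(A) polymerase. All 4 were highest in number 2, with FASTKD2 at 12.4 ± 1.86, 20.5 ± 3.03 and 12.9 ± 0.900 TPM in numbers 1, 2 and 3 (adjusted p = 0.0227). SSBP1 averaged 298 ± 41.3, 418 ± 24.6 and 308 ± 13.9 (adjusted p = 0.0449), so it was high in the same libraries as TWNK and TFAM. LONP1, the matrix protease that degrades TFAM protein, went the other way, at 250 ± 19.5, 145 ± 2.38 and 191 ± 8.55 TPM (adjusted p = 0.00679). Its call held with each of the 9 libraries left out in turn (highest adjusted p = 0.0453), while that of SSBP1 was lost in 7 of 9 such fits (highest 0.198) and that of FASTKD2 in 4 of 9 (highest 0.118). The SLIRP call was lost in 6 of 9, that of ELAC2 in 8 of 9 and that of MTPAP in 9 of 9 (highest 0.163). With 21 genes and no test of the list, the 19.0% is not read as a result about RNA processing genes. Also lowest in number 2 was NFE2L1, at 152 ± 8.89, 109 ± 4.38 and 130 ± 10.3 (adjusted p = 0.0195), while YY1, a factor reported to act with PGC-1 coactivators, was highest there at 43.0 ± 1.12, 56.8 ± 2.07 and 42.02 ± 1.56 (adjusted p = 0.0223). The NFE2L1 and YY1 calls were lost in 5 and 6 of 9 such fits. No elongation and termination factor passed (0 of 6, also at an unadjusted p under 0.05), and 2 of 14 ribosomal RNA modification genes (14.3%), 3 of 18 replication and nucleoid genes (16.7%), 2 of 22 coactivator and receptor genes (9.09%) and 2 of 43 reported targets (4.65%) did, shares near or below the 12.6% of all genes. Both ribosomal RNA modification genes, RPUSD4 and DHX30, lost the call in 9 of 9 such fits. The median difference of number 2 from number 1 was 0.36 (log2) for RNA processing genes, 0.32 for elongation and termination factors, 0.27 for ribosomal RNA modification genes, 0.07 for the reported targets, 0.03 for replication and nucleoid genes and −0.10 for coactivators and receptors, beside 0.25 for the 10 regulators and 0.02 for all genes.

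**Figure D5:**
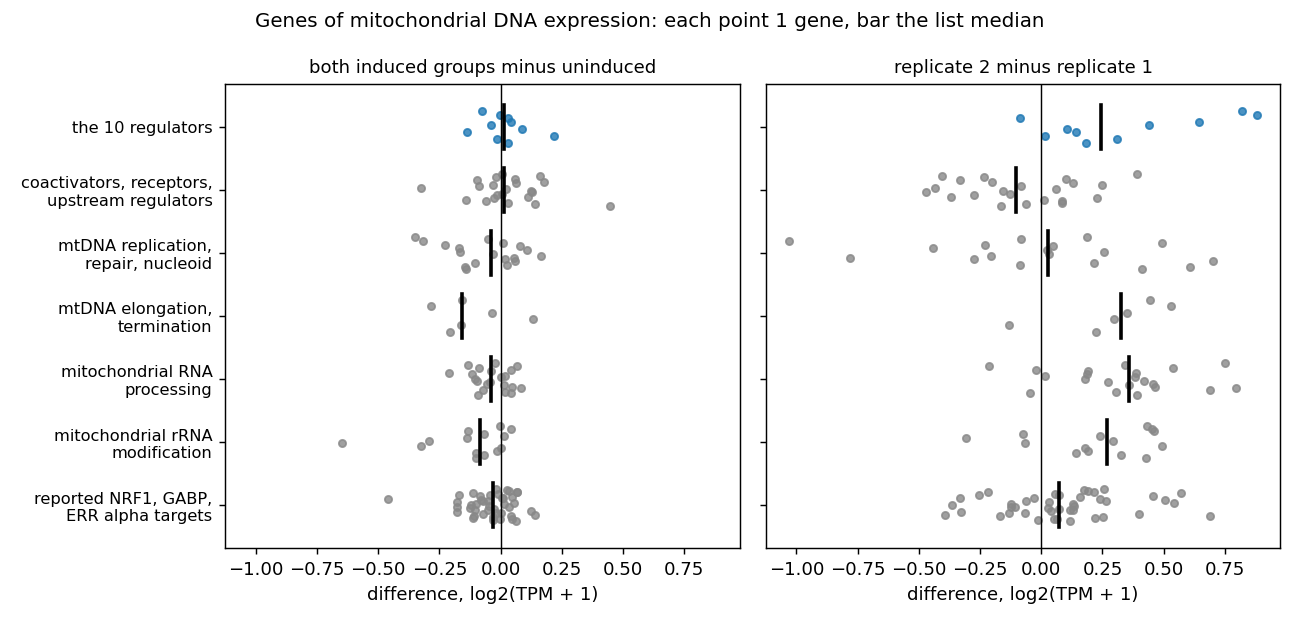
Log2 differences of the genes of each related list for both induced groups against uninduced (left) and for replicate number 2 against number 1 (right), 1 point per tested gene with the list median as a bar. On induction the medians lie near 0, and for number 2 they run from −0.10 (coactivators and receptors) to 0.36 (RNA processing), with the 10 regulators at 0.25.

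The RNA made from mtDNA could not be read directly, because all 37 rows of mtDNA genes were listed at 0 in every library. Of 395 rows named as nuclear copies of mtDNA genes, 6 averaged at least 100 TPM, a bound chosen after the values were seen. These rows are near-identical to the mtDNA genes and their counts are uncertain, since the reads of the originals may have been assigned to them. Their sum was 7959, 10782 and 8267 TPM in uninduced replicates 1, 2 and 3, 8944, 11257 and 8425 at day 5, and 9279, 13410 and 8945 at day 7. Replicate 2 was highest in each group, as for TFAM, TFB2M and TWNK. MTCO3P12, the copy of a cytochrome oxidase subunit gene, read 776 ± 70.2, 1472 ± 234 and 799 ± 74.3 TPM in numbers 1, 2 and 3, whereas MTND1P23, the copy of a complex I subunit gene, was highest in number 1 at 970 ± 125, 675 ± 123 and 697 ± 37.3.

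The chromatin data, a list of 482 peaks (build hg38) that sets wild-type Z138, given no treatment, against clone # 7 after 7 days of doxycycline at 2 ng/mL as negative control, held no peak near the regulators. With 1 library on each side there is no replicate check. None of the 10 genes had a peak within 100 kb of its span (0 of 10), beside 0.858% of 59679 annotated genes, and none had one within 1 Mb, beside 4.39%. The nearest was 6.59 Mb from TFAM (chromosome 10, 58385410 to 58399220, plus strand, GRCh38.p14), and chromosome 6, which holds TFB1M (155229871 to 155314484), had no peak in the list. At these background shares a list of 10 genes would hold few or none, so the count of 0 is no result about the regulators.

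Some rows share sequence or position with other genes, and the strand setting of the authors' counting is not given in the sources used here. PPARGC1B overlaps PDE6A and MIR378A, TFB1M overlaps TIAM2 and CLDN20, PPRC1 overlaps LDB1, ESRRA overlaps TRMT112, and GABPA overlaps ATP5PF. TWNK lies 46 bases from MRPL43 and POLRMT 62 bases from HCN2. POLRMT also overlaps the long noncoding RNA LOC105372234, NRF1 the pseudogene RNA5SP244 and GABPA the pseudogene LLPHP2. Pseudogene rows were listed beside their parents, GABPAP at a mean of 6.20 TPM, POLRMTP1 at 3.18 and ESRRAP1 at 0.38, so reads of GABPA, POLRMT and ESRRA may be split.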

How the data were processed

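RNA libraries were made with a stranded mRNA kit, per the labels' protocols. The authors deposited TPM for 60656 rows in 9 libraries. Tools named without roles in the submitters' processing notes were HISAT2 2.1, StringTie 1.3.4, DESeq2, deepTools, Genrich 1.0 and ChIPseeker, and the build was hg38. The deposited peak list gives each peak a score and the −log10 of a p-value. The annotation release is not stated. Columns headed day 0 were taken as the uninduced libraries, by their replicate numbers.

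Values were transformed to log2(TPM + 1), which understates changes of low genes. The 15045 rows that reached 1 TPM in 3 or more libraries were tested with limma 3.58.1 in R 4.3.3, with groups as the only term, an intensity trend and Benjamini-Hochberg adjustment over all rows at 0.05. Replicate number was tested with an F test in a model with group and number. The scripts were tested on simulated data. Sequencing depth is unknown, so no counting interval is given, and only the spread between libraries measures precision. Motifs were searched in RefSeq sequences.

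Alternatives were the pseudocount, filter, scaling, trend, block on number, numbers 1 and 3 only, fits on the groups compared and each library left out. Named are the 10 regulators, DNMT3A, fixed partners and, per list, genes past the threshold or with the smallest p. YY1, FASTKD2 and other genes named for replicate number, the lymphoma markers among them, were picked after their values were seen. The members, lists and rules were chosen with earlier results of these data known.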

Additional observations from a re-analysis of the deposited data

How the results depend on the processing

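No regulator passed on induction under any alternative run, the lowest adjusted p being 0.872. Uncalled differences changed sign when single libraries were left out in 17 of 90 cases at day 5 and 11 of 90 at day 7. Without the filter, genes called were 3 at day 5, 1 at day 7, 4 for day 7 against day 5, 0 for both induced groups, and 368 for replicate number, where the regulators called went from 3 to 0 over more genes tested. Libraries numbered 1 and 3 only gave 0 at day 5, 1 at day 7 and 0 for both groups. Fits on only the groups compared gave 4 at day 7 and 5 for day 7 against day 5. Without the intensity trend 1038 genes passed for number. Leaving out each library gave 1 to 3 genes at day 5, 0 to 3 at day 7, 1 to 3 for day 7 against day 5, 1 to 4 for both groups, 251 to 1620 for number, and 0 to 4 regulators for number. PPARGC1B dropped out at a mean of at least 5 TPM. The causes of these shifts were not tested, and unknown depth limits the precision of low genes. All alternatives on genes called for number were added after the data were seen.

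The replicate block called 0 regulators in every comparison, and 1, 0, 1 and 1 genes at day 5, at day 7, for day 7 against day 5 and for both groups, as without it. With the block, the day 5 SE was 0.15 for TFB2M, 0.13 for TWNK, 0.12 for TFAM and 0.15 for NRF1. Without it, these were 0.33, 0.32, 0.26 and 0.16. Deviations correlated above 0.1 in 8 of 9 same-numbered pairs (0.08 to 0.44), while differently numbered pairs ran from −0.41 to 0.19. As deviations were taken from each group's own mean, they cancel within a group, and the negative values are no separate sign. In the same correlations, each library's best match bore its own number in 16 of 18 cases, a hint from the data that numbers are shared. The hint is weak for number 3, whose own pairs (0.11, 0.13 and 0.08) lay inside the range of differently numbered ones. The design text does not say that numbers are shared and 1 pair missed 0.1, so the block was kept as an alternative.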
